A study of Arabidopsis thaliana with 6 samples.

Results

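The genes described here, named by their loci, encode 4 hybrid proline-rich proteins of Arabidopsis thaliana, AT4G12510 and AT4G12520 on chromosome 4 and AT5G46890 and AT5G46900 on chromosome 5. They are 4 of the 14265 genes that the platform annotation pairs with the ATH1 array, an oligonucleotide array for this plant. They are read by 2 of its 22746 probe sets that are not controls, and each probe set is annotated to both genes of 1 chromosome. Each value below therefore belongs to a gene pair and cannot be split between its genes. The pairs were chosen with their differences between treated and control seedlings already known, so those differences are given as a description and no test of them is reported. Both probe sets passed the filter on low signal, as did 13648 probe sets in all.

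Whole seedlings of accession Col-0 were grown for 13 days in shaken flasks, 10 seedlings in 100 ml of medium. They then received either 60 µM of the explosive 2,4,6-trinitrotoluene (TNT) in 60 µl of dimethylformamide (DMF) or the same volume of DMF alone. RNA was taken after 6 h. There were 3 arrays per group, all from wild-type plants, and both groups received DMF. Nothing in the labels ties replicates to different flasks, so p-values cover the spread among these samples alone and that spread may be technical.

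Hybrid proline-rich proteins are secreted plant proteins that join a proline-rich stretch to a domain of the lipid-transfer family, held together by conserved cysteines. Lipid-transfer domains can hold fatty acids and related lipids, and members of the family have been linked to the cell wall and cuticle, to growth and to defence. Well-known relatives in Arabidopsis are AZI1 and EARLI1, which act in systemic immunity and stress responses, and AIR1, found as an auxin-induced transcript of roots. The reference table gives the 4 genes no symbol. RNA came from whole plants, so the expression of these genes in roots was not examined with these arrays.

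The arrays fall into an uneven pattern that touches every value here. Across tested probe sets, TNT replicate 2 correlated at 0.975 with DMF replicate 2 but at 0.888 and 0.906 with TNT replicates 1 and 3. Log2 signals spread less on both arrays numbered 2, with SDs of 1.33 and 1.34, than on the other 4, with SDs of 1.44 to 1.51. Results are therefore given over all 6 arrays and also without TNT replicate 2. That array was picked from these same values, and DMF replicate 2 was kept. Calls, p-values and differences without TNT replicate 2 are thus a description and not independent evidence.

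Signals of both gene pairs were lower with TNT in each of the 3 replicate pairs. The average difference was 1.80-fold for AT4G12510 and AT4G12520 and 1.67-fold for AT5G46890 and AT5G46900, computed from mean log2 signals. The size was uneven: replicate 3 showed more than a 2-fold difference in both probe sets, and replicate 2 the smallest.

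The probe set of AT4G12510 and AT4G12520 gave MAS5 signals (linear, on the authors' scale) of 632, 824 and 672 on the DMF arrays numbered 1, 2 and 3. The TNT arrays numbered 1, 2 and 3 gave 415, 613 and 237. The groups did not overlap, but the highest TNT array, replicate 2, lay just under the lowest DMF array, replicate 1. The log2 signal was 9.46 ± 0.20 (SD, n = 3) with DMF and 8.62 ± 0.69 (SD, n = 3) with TNT. TNT minus DMF was -0.61, -0.43 and -1.50 on the log2 scale in replicates 1, 2 and 3, with a mean of -0.85 ± 0.58 (SD of the 3 pairs). Non-overlap with TNT lower was found for 6.07% of all tested probe sets.

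The probe set of AT5G46890 and AT5G46900 gave 766, 949 and 620.5 on the DMF arrays in the same order. On the TNT arrays it gave 468, 737 and 279.8. Here the groups overlapped, since TNT replicate 2 stood above DMF replicate 3. The log2 signal was 9.58 ± 0.31 (SD, n = 3) with DMF and 8.84 ± 0.70 (SD, n = 3) with TNT. TNT minus DMF was -0.71, -0.36 and -1.15 on the log2 scale in replicates 1, 2 and 3, with a mean of -0.74 ± 0.39 (SD of the 3 pairs). Of all tested probe sets, 20.7% were lower with TNT in every replicate pair.

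**Figure D1:**
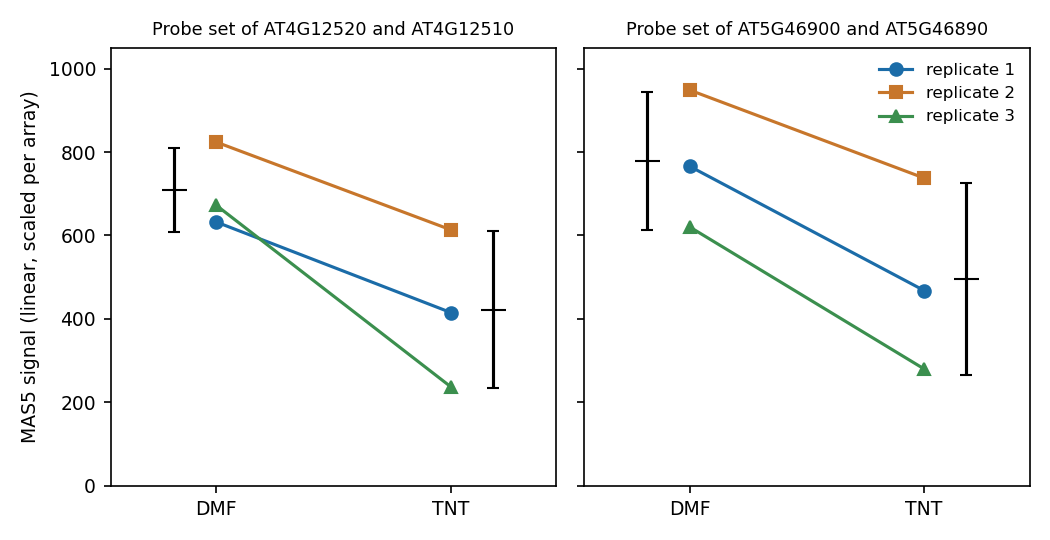
MAS5 signal of both probe sets on each array, with lines that join the DMF and TNT arrays of 1 replicate number; black marks give the mean and SD of each group (n = 3). Every line slopes down, from 824 to 613 in replicate 2 and from 672 to 237 in replicate 3 for AT4G12510 and AT4G12520, while the SD is wider with TNT than with DMF.

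Both probe sets were measured far above background. The lowest of the 6 signals stood at 19.7 times the highest bacterial control on the same array for AT4G12510 and AT4G12520, and 23.2 times for AT5G46890 and AT5G46900.

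The spread among TNT arrays was wider than among DMF arrays in both probe sets, and replicate 2 was the highest array of its group each time. Both arrays numbered 2 were thus high: 824 with DMF and 613 with TNT for the chromosome 4 pair, 949 and 737 for the chromosome 5 pair. TNT replicate 3 was the lowest array for both. Its distance from DMF replicate 3 was 2.84-fold for AT4G12510 and AT4G12520 and 2.22-fold for AT5G46890 and AT5G46900, against 1.34-fold and 1.29-fold between the arrays numbered 2.

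Limma over all 6 arrays called 0 of 13648 probe sets at an adjusted p of 0.05, so percent called was 0%, and 1195 probe sets (8.76%) had an unadjusted p under 0.05. With the replicate number as a block the count was again 0, with 2311 (16.9%) at the unadjusted threshold. Without TNT replicate 2, 443 probe sets (3.25%) were called lower and 504 (3.69%) higher. The log2 differences of the gene pairs, given with no call because the pairs were chosen on this contrast, were then -1.17 for the chromosome 4 pair and -1.08 for the chromosome 5 pair. With both arrays numbered 2 left out they were -1.06 and -0.93. Without TNT replicate 3, the lowest array, the differences shrank to -0.48 and -0.38.

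The 2 probe sets, which read genes of different chromosomes, followed each other closely over the arrays. Both were chosen with their differences between TNT and DMF known, so this likeness is not independent of that choice. After each profile was centred on its own mean, the root mean square difference between them was 0.13 on the log2 scale, against medians of 0.61 and 0.60 between either of them and all other tested probe sets. Ranked by this measure among 13647 others, AT5G46890 and AT5G46900 came 5th from AT4G12510 and AT4G12520, which in turn came 7th from them. The largest departure between the pairs was in replicate 3, where the TNT minus DMF difference of the chromosome 4 pair lay 0.36 further down. Whether probes of either set also bind transcripts of the other pair was not tested.

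By the same measure, the single-gene probe sets most like the average of both gene pairs over the 6 arrays were AT1G66800 (0.07), AT5G14330 (0.09), AT2G36430 (0.11), AT4G18810 (0.13) and AT2G21830 (0.14). AT1G66800 gave 116, 154 and 97.3 on the DMF arrays and 69.2, 109.7 and 39.6 on the TNT arrays, each in replicate order. Its order of arrays was that of AT5G46890 and AT5G46900, with DMF replicate 2 highest and TNT replicate 3 lowest. AT2G36430 gave 129.1, 146.0 and 106.0 on the DMF arrays and 74.1, 109.9 and 51.1 on the TNT arrays. AT2G21830 was flat over all DMF arrays and TNT replicate 2, at 37.6 to 40.3, and stood at 22.3 and 12.3 on TNT replicates 1 and 3. All 5 had overlapping groups and TNT lower in each pair, with mean log2 differences between -0.84 and -0.72. That direction follows from their choice by likeness to gene pairs that were lower with TNT, so no call is given for them. The reference table gives none of the 5 a symbol.

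**Figure D2:**
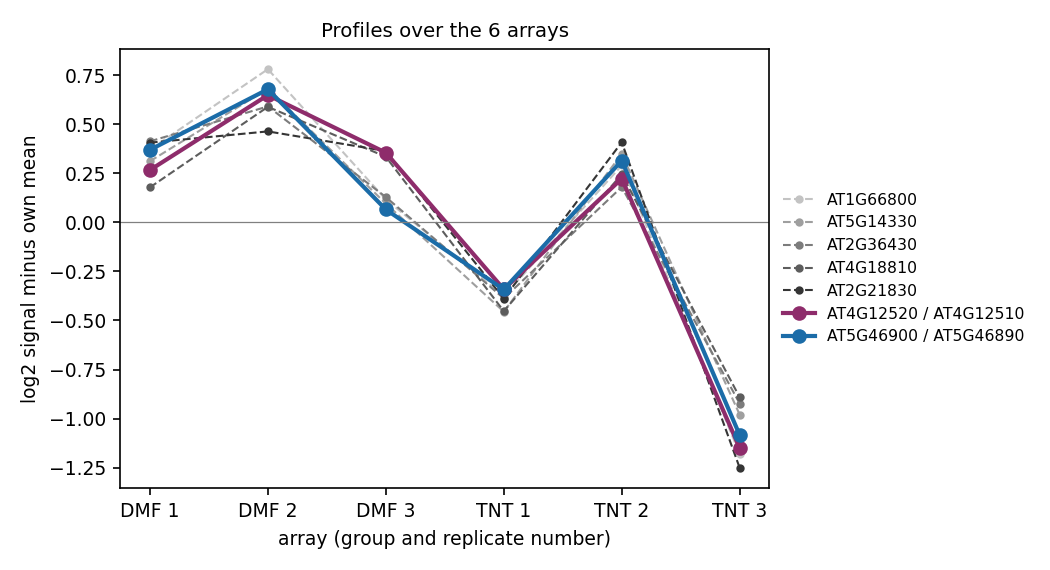
Log2 signal minus its own mean over the 6 arrays (y axis) on each array (x axis), for both gene pairs in colour and the 5 most similar single-gene probe sets in grey. The coloured lines run together from DMF replicate 2, the highest array, to TNT replicate 3, the lowest, and part most on DMF replicate 3.

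Among other hybrid proline-rich genes, 1 of 7 tested, AT2G10940, was lower with TNT in every replicate pair, against 20.7% of all tested probe sets. Another 1, AT4G12490, was higher in every pair, for which the share over all tested probe sets was not computed. A list of 22 family genes matched 11 probe sets, of which 9 were tested, and 7 of those belong to other genes. AZI1, EARLI1 and AIR1 were on this list, but none of the matched probe sets was annotated to them, so they are not covered here. Of the 7, limma called 0 over all 6 arrays. Without TNT replicate 2, 0 rose, 0 fell and 7 did not pass, where 3.69% of all tested probe sets rose and 3.25% fell. Their median TNT minus DMF difference was -0.02 on the log2 scale over 6 arrays, beside -0.02 for all tested probe sets. The groups of AT2G10940 did not overlap, with TNT lower, as for 6.07% of all tested probe sets; those of the other 6 overlapped.

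AT4G12500, the gene next to AT4G12510 in the order of the TAIR10.1 reference, and AT4G12490, which lies beyond it with AT4G12495 between them, had higher mean log2 signals with TNT. AT4G12490 gave 132.6, 73.7 and 244.6 on the DMF arrays and 393.7, 85.5 and 307.7 on the TNT arrays, in replicate order. The groups overlapped, since TNT replicate 2 stood below DMF replicates 1 and 3, and the log2 difference was 0.70 ± 0.62 (SE; limma adjusted p = 0.798). AT4G12500 read 49.8, 55.2 and 93.3 with DMF, and its TNT arrays read 158.8, 47.7 and 114.2. Its difference of 0.58 ± 0.44 (SE) did not pass either (limma adjusted p = 0.760), and TNT replicate 2 lay below every DMF array. The differences were 1.38 and 1.08 without TNT replicate 2, and neither passed (limma adjusted p = 0.105 and 0.0703). The difference in replicate 1 was 1.57 and 1.67 for these neighbours, where that of AT4G12510 and AT4G12520 was -0.61. Whether the neighbours and the gene pair respond differently was not tested, since the pair was chosen on this contrast.

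On the other side of AT4G12520, AT4G12530 and AT4G12540 were under the filter on low signal. AT4G12530 lay under the highest bacterial control on 5 of 6 arrays. AT4G12540 ranged from 10.5 to 16.0. Next to AT5G46900, AT5G46910 was also under the filter, with signals from 17.3 to 36.1, and AT5G46920, further along, differed by 0.10 on the log2 scale (limma adjusted p = 0.921), from DMF signals of 94.5, 75.3 and 85.0 to TNT signals of 104.5, 78.8 and 90.7. Of 8 neighbouring genes looked at beside each pair, 4 on chromosome 4 and 2 on chromosome 5 had a probe set annotated to them alone. The annotation leaves 8730 probe sets unnamed, so the other neighbours may still have probe sets on the array. The genes of each pair are direct neighbours in the reference.

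Among the remaining family members, AT2G10940 gave 2023, 1722 and 1831 on the DMF arrays and 1235, 1461 and 1247 on the TNT arrays. The groups were apart, with a log2 difference of -0.50 ± 0.14 (SE) that did not pass (limma adjusted p = 0.480, and 0.0546 without TNT replicate 2). AT1G62510 differed by -0.26, and by -0.96 without TNT replicate 2, which at 541 lay above every DMF array; neither passed (limma adjusted p = 0.939 and 0.121). AT2G45180 and AT1G62500 differed by -0.12 and 0.04, and neither passed.

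**Figure D3:**
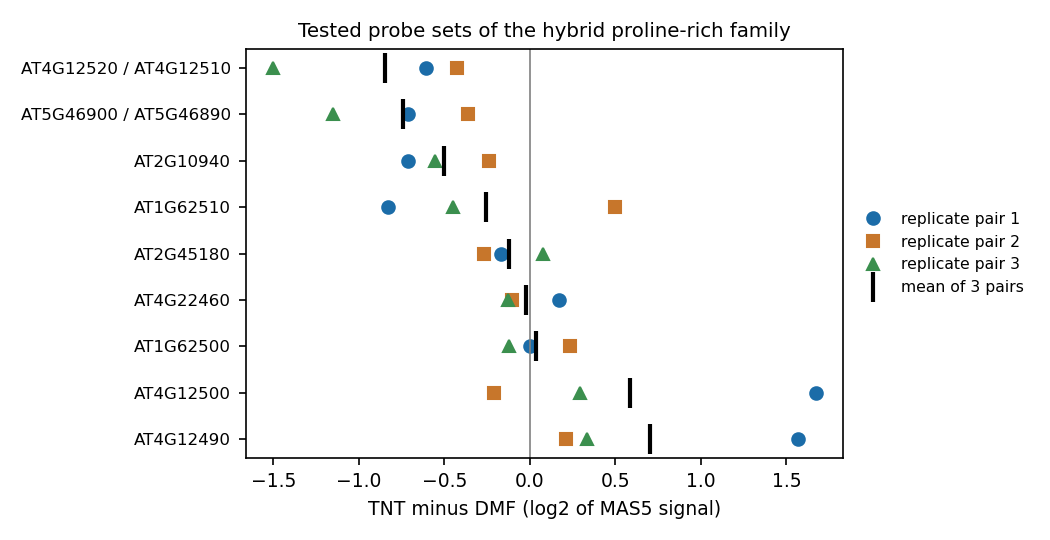
TNT minus DMF difference in log2 signal (x axis) for each tested probe set of the hybrid proline-rich family, with 1 point per replicate pair and a bar at the mean of the 3 pairs. Both gene pairs lie left of 0 in all pairs, at means of -0.85 and -0.74, while AT4G12490 and AT4G12500 lie at 0.70 and 0.58 with replicate 1 at 1.57 and 1.67.

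Lipid-transfer proteins outside the hybrid group had a median difference near that of all tested probe sets. A list of 55 genes matched 27 probe sets, 14 of them tested. Over all 6 arrays 0 of the 14 were called and the median difference was 0.01 on the log2 scale; without TNT replicate 2, 1 fell, 0 rose and 13 did not pass, where 3.25% of all tested probe sets fell and 3.69% rose. The gene that fell was AT5G48490, with 273.1, 166.0 and 198.2 on the DMF arrays and 46.4, 439.4 and 81.5 on the TNT arrays. Its log2 difference was -1.76 without TNT replicate 2 (limma adjusted p = 0.0139) and -0.81 with all arrays (limma adjusted p = 0.802), where TNT replicate 2 was the highest of the 6. In replicate 2 it was higher with TNT by 1.40 on the log2 scale, where both gene pairs were lower. Of the other 5 largest differences, AT5G55450 stood at -0.38, AT3G22620 at 0.39, AT1G48750 at 0.32, AT1G62790 at 0.26 and AT2G48130 at 0.22, and none passed.

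Tissue markers were set beside the gene pairs because RNA came from whole seedlings. In such bulk samples fewer root cells and less RNA per root cell cannot be told apart. A list of 30 root markers, among them many class III peroxidases of the cell wall, matched 11 probe sets, of which 9 were tested. The summed signal of the 11 probe sets ran from 5500 to 6498 with DMF and from 4590 to 5939 with TNT, so the groups overlapped. A large part of that sum was 1 gene, PYK10, at 2690 to 3339 with DMF and 2598 to 3214 with TNT. The sum therefore says little about the weaker markers. The median log2 difference of the tested markers was -0.11, and -0.09, -0.48 and 0.13 in replicates 1, 2 and 3.

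Some root markers differed more. AT4G26010, a peroxidase, gave 254.1, 240.0 and 289.2 on the DMF arrays and 99.2, 106.4 and 78.4 on the TNT arrays. The groups were well apart, by -1.47 on the log2 scale (limma adjusted p = 0.138; 0.00236 without TNT replicate 2, where it fell). AT3G49960, under the filter on low signal, read 34.1, 46.4 and 39.2 with DMF and 0.89, 14.9 and 0.76 with TNT, and AT1G34510 read 32.8, 29.5 and 46.8 with DMF and 3.08, 19.8 and 2.66 with TNT. Both lay under the bacterial controls on TNT replicates 1 and 3, and neither was listed at 0. AT5G17820, another peroxidase, was lower with TNT in every pair, with a mean difference of -0.60 (limma adjusted p = 0.515). Without TNT replicate 2, 1 tested root marker fell, 1 rose and 7 did not pass, beside 3.25% and 3.69% of all tested probe sets; the one that rose was AT5G66390 (PRX72, a peroxidase), by 0.90 (limma adjusted p = 0.0357), and it is named for that reason after its values were seen.

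Root hair genes were lower with TNT in every pair for 5 of 5 tested members, against 20.7% of all tested probe sets. The list of 25 genes matched 6 probe sets, and it was written with earlier results of these arrays known, so its direction is not independent evidence. Its summed signal ran from 485 to 726 with DMF and from 206.4 to 329 with TNT, without overlap. A large part of that sum was 1 gene, HRGP1, at 234 to 405 with DMF and 93.7 to 129 with TNT. Over all 6 arrays 0 were called. Without TNT replicate 2, HRGP1, a hydroxyproline-rich wall protein, fell by 1.65, GH9C1, an endoglucanase, fell by 1.52 and EXPA18, an expansin, fell by 1.35, while EXPA7, another expansin, did not pass at -1.22, nor did the remaining 1. Thus 3 of 5 fell, where 3.25% of all tested probe sets did. Limma adjusted p was 0.00732, 0.0167 and 0.0126 for those 3, and the name of the HRGP1 probe set marks it as one whose probes may bind other genes as well. The list's median difference over 6 arrays was -1.06, and -1.35 without TNT replicate 2.

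Relative scales were added after the values were seen. Measured against the tested root markers on the same array, the chromosome 4 pair differed by -0.50, 0.13 and -1.44 in replicates 1, 2 and 3, and the chromosome 5 pair by -0.60, 0.19 and -1.08. The sign thus turned in replicate 2 for both. Measured against the tested root hair genes, the chromosome 4 pair stood at 0.54, 0.44 and -0.35 and the chromosome 5 pair at 0.44, 0.50 and 0.01. Both gene pairs thus stood above the root hair genes in replicates 1 and 2 on this relative scale. The part of root tissue or of root hairs in the difference of the gene pairs was not tested.

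**Figure D4:**
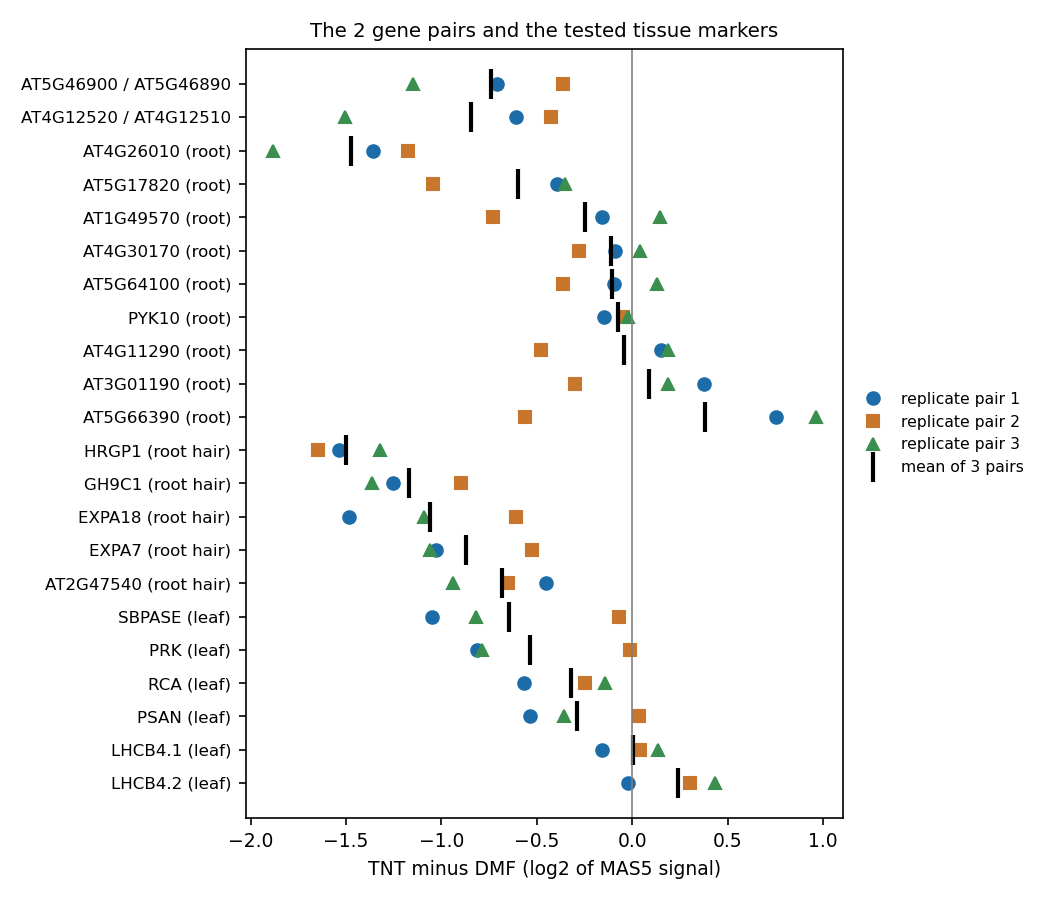
TNT minus DMF difference in log2 signal (x axis) of both gene pairs and of the tested root, root hair and leaf markers, with 1 point per replicate pair and a bar at the mean. The root hair genes lie left of 0 in all pairs, between means of -0.68 and -1.50, while most root markers spread around 0.

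Leaf photosynthesis markers gave a view of the shoot. A list of 30 genes matched 6 probe sets, all tested, with summed signals of 10526 to 14220 with DMF and 10476 to 12602 with TNT, which overlapped. The median difference was -0.30 on the log2 scale, and 0 of 6 were called over all 6 arrays. With TNT replicate 2 left out, SBPASE, a Calvin cycle phosphatase, fell by 0.88 and PRK, phosphoribulokinase, fell by 0.71 (limma adjusted p = 0.0208 and 0.0341). On the same arrays, RCA at -0.30 and PSAN at -0.24 did not pass. The other 2, LHCB4.2 and LHCB4.1, went the other way, at 0.34 and 0.23, and did not pass either. Over all 6 arrays LHCB4.2 and LHCB4.1 stood at 0.24 and 0.01. Thus 2 of 6 fell without TNT replicate 2, where 3.25% of all tested probe sets did. The list was written with earlier results of these arrays known, so this count is not independent evidence. SBPASE and PRK were nearly level in replicate 2, at -0.07 and -0.01, where the gene pairs stood at -0.43 and -0.36.

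Auxin-responsive root genes were listed because AIR1, a relative of these genes, is known for its response to auxin. Of 30 genes, 9 matched probe sets and 4 were tested, with a median difference of -0.13. AIR1 was on the list but not among the matched genes. Over all 6 arrays 0 were called. Without TNT replicate 2, GH3.17, an enzyme that conjugates auxin to amino acids, fell by 0.85 (limma adjusted p = 0.0249), 0 rose and 3 did not pass, where 3.25% of all tested probe sets fell and 3.69% rose. IAA18, a repressor of auxin responses, stood higher with TNT in every pair, by 0.76, 0.29 and 0.51 (limma adjusted p = 0.507 over all 6 arrays). The share of all tested probe sets higher in every pair was not computed. LBD29, a transcription factor of lateral root formation, was under the filter, with 12.2, 18.6 and 5.23 on the DMF arrays and 2.02, 13.0 and 0.94 on the TNT arrays. GH3.1 was under the bacterial controls on all 6 arrays.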

How the data were processed

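The authors deposited 1 intensity per probe set on a linear scale; the submitters' processing notes name MAS5 and GCOS, without versions or settings. Trimmed means (2% left out at each end) lay at 100.01 on each array, so arrays had been scaled before deposit. The 64 control probe sets of 22810 were not tested. By the platform annotation 13513 of the others have 1 gene, 503 have several and 8730 are unnamed here. Names follow the TAIR10.1 reference table. The sample labels name no genome build, so coordinates are not given. Sequences of the 4 genes were not at hand, so their planned comparison was not run.

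Log2 was taken with no offset. The filter kept probe sets with a mean log2 signal of at least the 40th percentile, and these went into limma 3.58.1 in R 4.3.3 (intensity trend, two-sided), TNT against DMF, with Benjamini-Hochberg adjustment over all tested probe sets and a threshold of 0.05. The fit was tested on simulated data. Arrays varied independently there, so the simulation did not cover arrays that deviate together. The floor on each array was the highest signal among control probe sets of unspiked bacterial genes, 6.34 to 14.3. Median signals lay between 40.1 and 50.8. With 3 arrays per group, their number limits precision.

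The members and gene lists were chosen with earlier results of these data known, so no count for a list is independent evidence. The text names both gene pairs; the tested family probe sets with the largest differences, up to 6 per family list; the 5 most alike single-gene probe sets; and up to 4 of each other list by difference. Replicate numbers come from the titles; the title of 1 TNT sample has none, and it was taken as replicate 1. Arrays of 1 number deviated together from their groups (r = 0.54, 0.47 and 0.43 across probe sets). Arrays of different numbers were not compared in this way, so these values cannot show which arrays belong together. The numbers were taken to pair samples, and the labels give no origin of the pairing. AT5G66390, LHCB4.1 and LHCB4.2 were named outside this rule. Alternatives were other filters, an offset of 16, quantile normalization, median centring, no trend, array weights, a replicate block and arrays left out.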

Additional observations from a re-analysis of the deposited data

How the results depend on the processing

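Both gene pairs stayed lower with TNT under the offset, quantile normalization, median centring, array weights and every array left out. The log2 difference ranged from -1.17 to -0.48 for AT4G12510 and AT4G12520 and from -1.08 to -0.38 for AT5G46890 and AT5G46900 with single arrays left out, and it was -1.25 and -0.97 with array weights. The replicate block gave the same differences of -0.85 and -0.74, as it must where every replicate number has a DMF and a TNT array. Relative to the mean of the tested root markers, chosen after seeing the data, they were -0.60 and -0.50. Relative to the mean of the tested root hair genes, also chosen after seeing the data, the sign was reversed, to 0.21 and 0.32, because those genes differed more; this is a change of reference.

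The 0 calls over all 6 arrays stayed at 0 with the replicate block, with no filter or one at the 60th percentile, without the intensity trend, and under quantile normalization, median centring or the offset. They became 2896 with array weights and 1374 without both arrays numbered 2, and ranged from 0 to 947 with single arrays left out (3 without DMF replicate 2, 947 without TNT replicate 2). Array weights were 5.00 for DMF replicate 3, 2.78 for TNT replicate 3 and 0.26 for TNT replicate 2. With array weights, 1 of 7 hybrid proline-rich probe sets outside the gene pairs and 2 of 14 other lipid-transfer proteins were called. So were 2 of 9 root markers, 5 of 5 root hair genes, 2 of 4 auxin-responsive root genes and 2 of 6 leaf markers. Over all tested probe sets, 2896 of 13648 were called, all counts in either direction. Without both arrays numbered 2 the lists gave 1, 2, 2, 3, 2 and 2 in the same order, beside 1374 of 13648. With single arrays left out the list counts ranged from 0 to 0, 1, 2, 3, 1 and 2, beside at most 947 of 13648. The cause of these changes was not tested.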
